A study of Mus musculus with 2 samples.

Results

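The secreted WNT inhibitors are proteins that cells release to hold back WNT signals. The 9 genes described here were chosen by name, as the rows whose gene symbol was Frzb, Sfrp1, Sfrp2, Sfrp4, Sfrp5, Dkk1, Dkk2, Dkk3 or Wif1, out of 22072 symbols. All 9 were found, each as 1 RefSeq transcript that overlaps no other gene model. The RNA was taken from embryonic mouse tongues, dissected on day 12 of development, and the strain background was mixed. The mutant library was from Osr1f/-; Wnt1cre tongues, in which 1 Osr1 allele is null and the other is conditional and is removed where Wnt1cre is active, that is in the neural crest lineage that forms the tongue's connective tissue. The control library was from Osr1f/+ tongues, which keep a wild-type allele beside a conditional one and whose label names no Wnt1cre. The mutant tongues therefore carry the null allele in all cells, also outside the neural crest. Each library was made from pooled tongues. With 1 library per genotype no test between genotypes was possible, and every ratio compares 2 libraries.

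WNT ligands bind Frizzled receptors together with the coreceptors LRP5 and LRP6, and this stabilises beta-catenin, which switches on target genes. The secreted inhibitors act at different points. Frzb and the other Sfrp proteins carry a cysteine-rich domain like that of the Frizzled receptors and bind WNT ligands, as does Wif1 through its own WIF domain. Dkk1 and Dkk2 instead bind LRP5 and LRP6, while Dkk3 is a divergent relative with no settled role in WNT signalling. In the developing face and limbs, WNT signals act on whether mesenchyme forms cartilage, bone or muscle connective tissue.

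The promoters of Frzb and Dkk2 are shown because these 2 genes had the largest ratios of the 9. Each window runs from 250 bases before to 50 bases after the gene's start, read 5′ to 3′ on the gene's strand, from RefSeq on GRCm38.p6. Capitals mark a TATAAA match. Frzb lies on the minus strand (chr2:80447347-80447646) and Dkk2 on the plus strand (chr3:132085042-132085341).
Frzb: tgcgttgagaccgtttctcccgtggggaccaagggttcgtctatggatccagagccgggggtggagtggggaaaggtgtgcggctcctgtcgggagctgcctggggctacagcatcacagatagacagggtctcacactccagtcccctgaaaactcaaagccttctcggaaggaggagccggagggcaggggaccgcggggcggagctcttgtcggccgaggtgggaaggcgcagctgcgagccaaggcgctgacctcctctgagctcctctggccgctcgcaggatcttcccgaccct
Dkk2: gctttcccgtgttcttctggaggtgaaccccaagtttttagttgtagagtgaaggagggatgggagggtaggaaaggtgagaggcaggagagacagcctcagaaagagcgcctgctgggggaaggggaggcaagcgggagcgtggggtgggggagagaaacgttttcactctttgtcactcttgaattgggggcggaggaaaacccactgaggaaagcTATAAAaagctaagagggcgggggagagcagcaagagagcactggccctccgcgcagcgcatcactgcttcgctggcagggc
The table held windows for 6 of the 9 genes. TATAAA was found on either strand in 13.6% of all 32851 windows of this length and in 3 of these 6 genes: Dkk2, 32 bases before the start, Dkk1, 54 bases before it, and Wif1, on the opposite strand. The core motif of the odd-skipped factors, GCTACTG, stood in 3.70% of all windows, and the TCF/LEF motif CTTTGAT in 3.73%. Both strands were searched, and the 3 motifs do not overlap one another. Neither of the last 2 motifs was found in any of the 6 windows, which says only that these letters are absent there. The data are of RNA alone, so no binding to these windows was measured.

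Osr1 itself, a zinc finger transcription factor and the gene that was removed, had 18.4 FPKM in the mutant library, against 56.8 FPKM in the control library. That value covers the whole transcript, and which exons the conditional allele loses is not stated in the labels. FPKM counts sequenced fragments relative to transcript length and library depth. About 23100000 reads lay behind the mutant and 18900000 behind the control values, as estimated from the deposited coverage. A ratio is given below as mutant over control with a 95% counting interval from the estimated reads, which covers counting error only and no variation between embryos. A gene was called measured if it had at least 1 FPKM in either library, and 12383 genes were.

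The 9 genes spanned a wide range of levels. Sfrp2 was the most abundant in both libraries, followed by Sfrp1, and together with Frzb these Sfrp genes made up most of the RNA of the group. Sfrp2 held 59.2% of the summed FPKM of the 9 genes in the mutant and 60.6% in the control library, and Sfrp1 held 21.4% and 23.6%. Frzb, Dkk2, Dkk3 and Wif1 lay between 4.26 and 12.3 FPKM. Dkk1, Sfrp4 and Sfrp5 stayed under 1 FPKM in both libraries, so 6 of the 9 genes were measured.

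**Figure D1:**
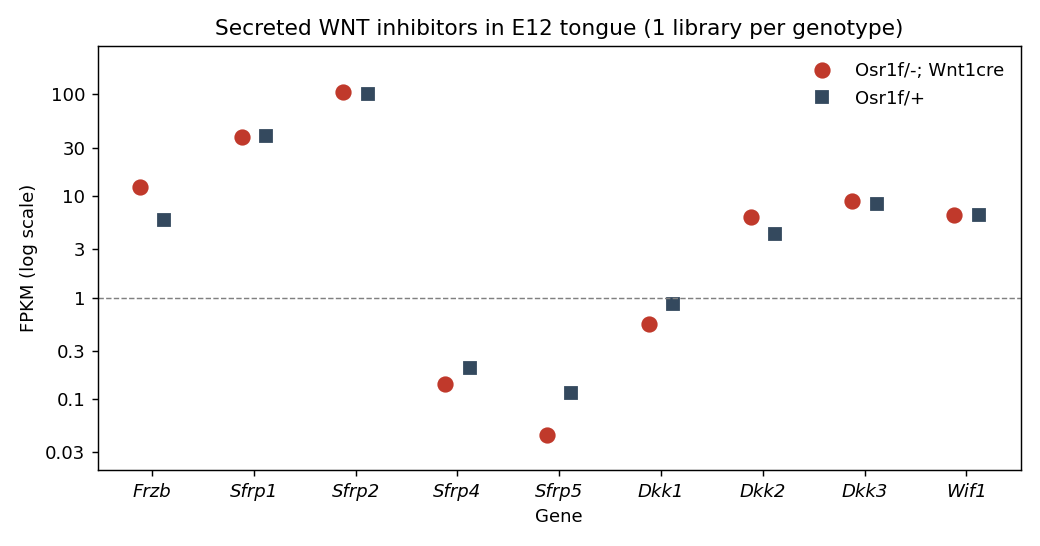
FPKM (log scale) of each of the 9 genes in the Osr1f/-; Wnt1cre library (red circles) and the Osr1f/+ library (dark squares), 1 library each, with a dashed line at 1 FPKM. Frzb stands at 12.3 against 5.83 FPKM and Dkk2 at 6.19 against 4.26 FPKM, while the points of Sfrp1, Sfrp2, Dkk3 and Wif1 lie nearly level.

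Frzb, the Sfrp family member first found in cartilage, differed most. It had 12.3 FPKM in the mutant library, against 5.83 FPKM in the control library, from about 827 and 321 reads. The mutant library was the higher one by a ratio of 2.10 (1.85 to 2.40). Frzb (NM_011356, mm9 chromosome 2, 80252127 to 80287553) stood at rank 60 of the 12383 measured genes by the log2 ratio of FPKM plus 1, which was 0.96, so that 0.476% of genes had a higher one. The gain moved its place among the 9: it was the third highest in the mutant library and the fifth highest in the control library. Its share of the summed FPKM of the 9 genes was 6.85% in the mutant and 3.51% in the control library.

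Sfrp1 and Sfrp2, the close relatives that are broadly made by embryonic mesenchyme, hardly differed. Sfrp2 (NM_009144, chromosome 3, 83570243 to 83578236) had 106 FPKM in the mutant library, against 101 FPKM in the control library. Its ratio was 1.05 (1.01 to 1.10), so the interval left out 1 at about 4901 and 3797 reads, and 26.0% of measured genes had a higher log2 ratio. Sfrp1 (NM_013834, chromosome 8, 24521974 to 24560104) had 38.4 FPKM in the mutant and 39.2 FPKM in the control library, a ratio of 0.978 (0.933 to 1.03). The interval of Frzb thus overlapped with neither. The Sfrp class summed to 157 FPKM in the mutant and 146 FPKM in the control library, a ratio of 1.07 (1.04 to 1.11), and without Frzb the ratio of the sums was 1.03 (0.998 to 1.07).

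Sfrp4 and Sfrp5 were near the limit of detection. Sfrp4 (chromosome 13, 19715044 to 19724692) had 0.142 FPKM in the mutant and 0.203 FPKM in the control library, from about 6 and 7 reads. Sfrp5 (chromosome 19, 42272461 to 42276742) had 0.0447 FPKM in the mutant and 0.115 FPKM in the control library, from about 2 and 4 reads. A floor of 3 reads corresponds to 0.0683 FPKM for Sfrp5 in the mutant library, so its value there lay under the floor. The ratios were 0.699 (0.194 to 2.43) for Sfrp4 and 0.389 (0.0369 to 2.85) for Sfrp5, and no difference was detectable at this depth.

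Among the Dickkopf genes, which block the LRP coreceptors in the case of Dkk1 and Dkk2, Dkk2 differed and the other two did not beyond counting error. Dkk2 (NM_020265, chromosome 3, 131748256 to 131843268) had 6.19 FPKM in the mutant library, against 4.26 FPKM in the control library, from about 530 and 298 reads. The ratio was 1.45 (1.26 to 1.68), and 1.57% of measured genes had a higher log2 ratio of FPKM plus 1. Its interval did not reach that of Frzb. Dkk3 (NM_015814, chromosome 7, 119259533 to 119302571) had 8.97 FPKM in the mutant and 8.43 FPKM in the control library, a ratio of 1.06 (0.949 to 1.19). Dkk1 (NM_010051, chromosome 19, 30620374 to 30623986), a strong inhibitor and itself a WNT target, had 0.547 FPKM in the mutant and 0.861 FPKM in the control library. It rested on about 28 and 36 reads, and its ratio of 0.636 (0.373 to 1.07) held 1. The Dkk class summed to 15.7 FPKM in the mutant and 13.5 FPKM in the control library, a ratio of 1.16 (1.06 to 1.26). Most of this difference came from Dkk2, so the ratio of the sums does not describe each gene of the class.

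Wif1, which binds WNT ligands directly, was level between the libraries within counting error. It had 6.44 FPKM in the mutant and 6.51 FPKM in the control library, a ratio of 0.988 (0.840 to 1.16). Wif1 (NM_011915) lies on chromosome 10, 120471060 to 120537698. In the order of levels, its interval of 5.76 to 7.16 FPKM overlapped in the mutant library with that of Dkk2, 5.68 to 6.74 FPKM. In the control library its interval of 5.76 to 7.32 FPKM overlapped with that of Frzb, 5.21 to 6.50 FPKM.

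**Figure D2:**
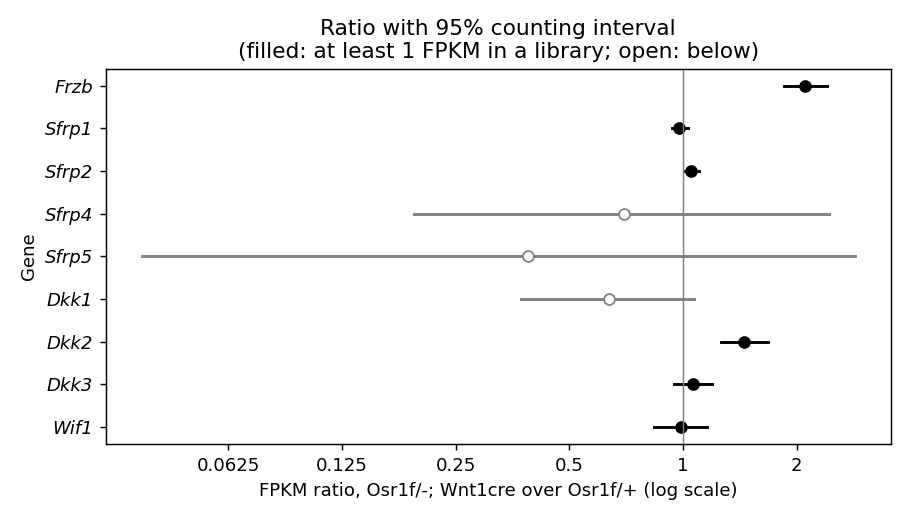
FPKM ratio of the Osr1f/-; Wnt1cre over the Osr1f/+ library for each of the 9 genes (log scale), with bars for the 95% counting interval; filled points are genes with at least 1 FPKM in a library and open points genes below it. Frzb (2.10) and Dkk2 (1.45) stand clear of the line at 1, Sfrp2 (1.05) just leaves it, and the bars of Dkk1, Sfrp4 and Sfrp5 cross it.

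Of the 6 measured genes, 4 were higher and 2 were lower in the mutant library, where 51.2% of all measured genes were higher. Frzb and Dkk2 were at least 1.2-fold higher on the scale of FPKM plus 1, a call made for 4.77% of measured genes, and none of the 6 was at least 1.2-fold lower, as 3.46% of genes were. Frzb alone was at least 1.5-fold higher, as 0.896% of genes were, and none was 1.5-fold lower, as 0.581% were. Among the 8970 genes that reached 5 FPKM in a library, as all 6 did, 2.82% were at least 1.2-fold and 0.479% at least 1.5-fold higher. Dkk2 reached 5 FPKM in the mutant library alone, where it was the higher one. The interval lay above 1 for Frzb, Dkk2 and Sfrp2, as for 10.7% of genes, and below 1 for none of the 6, as for 10.2% of genes. The median log2 ratio of the 6 was 0.08, against 0.0035 for all measured genes. The sum over all 9 genes was 179 FPKM in the mutant and 166 FPKM in the control library.

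**Figure D3:**
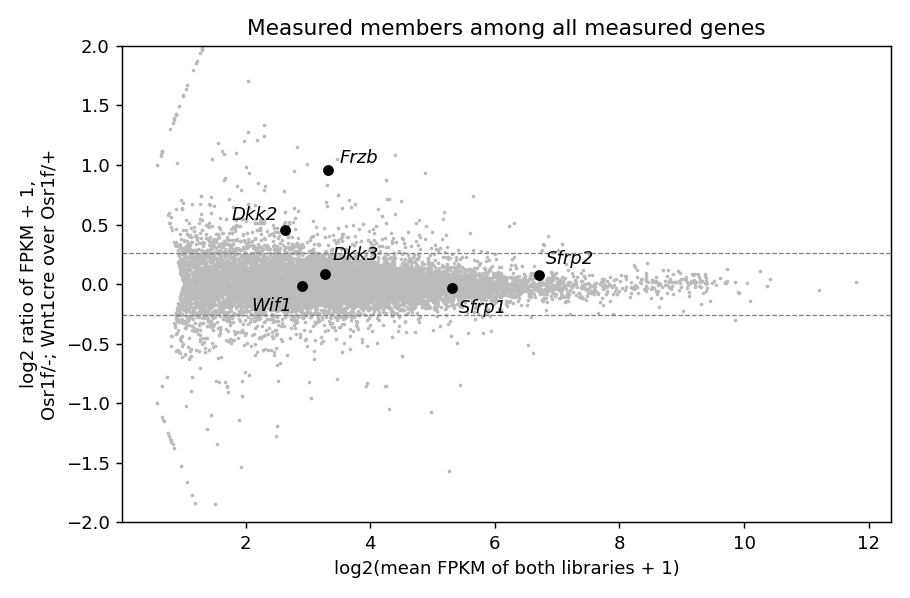
Log2 ratio of FPKM plus 1, Osr1f/-; Wnt1cre over Osr1f/+, against the log2 of the mean FPKM of both libraries plus 1; grey points are 12362 of the 12383 measured genes (21 lie beyond the axis), black points the 6 measured secreted inhibitors, and dashed lines 1.2-fold. Frzb at 0.96 and Dkk2 at 0.45 lie above the upper dashed line, and the other measured inhibitors lie within the band.

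The measured genes on either side of Frzb did not share its difference. Dnajc10, before it on chromosome 2, had a ratio of 1.02 (0.970 to 1.08), and Nckap1, after it, had 1.01 (0.962 to 1.06). The same held for Dkk2, whose neighbours Papss1 and Aimp1 had ratios of 1.06 (0.987 to 1.13) and 0.974 (0.876 to 1.08), though they lie 442 and 480 kb away. Over the named genes that reached 5 FPKM in a library, the 4 whose log2 ratio came closest to that of Frzb were Irx2 (0.95), Mpped2 (0.93), Aspn (1.01) and Mab21l2 (0.88). Irx2 and Aspn reached 5 FPKM in the mutant library alone, so that they could enter only as higher. This likeness rests on 2 libraries only.

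Frzb is known as a gene of forming cartilage, and the measured cartilage markers were higher in the mutant library too. The list was chosen with earlier results of these data known. Of 20 listed cartilage genes 18 had a row and 14 were measured, of which all 14 were higher in the mutant library, with a median log2 ratio of 0.40. Acan and Matn1 reached 1 FPKM in the mutant library alone, so that they could count only as higher. The summed level of the list was 331 FPKM in the mutant and 241 FPKM in the control library, and none of the 18 was at 0 in both. Sox9, the regulator of cartilage fate, had 23.1 FPKM in the mutant and 13.6 FPKM in the control library, and Sox5, its partner, had 3.73 FPKM in the mutant and 2.28 FPKM in the control library. The ratio of Frzb, 2.10, was above that of Sox9, 1.69 (1.57 to 1.82). The part of cartilage cells in the difference of Frzb or Dkk2 was not tested, and in such a mixed tissue more cells of a type and more RNA per cell cannot be told apart. Of 12 epithelial genes, 11 were lower in the mutant library, with a sum of 152 FPKM in the mutant and 173 FPKM in the control library. The 12 genes of skeletal muscle, of which a tongue is built, were all measured, 5 higher and 7 lower with a median log2 ratio of −0.03, and summed to 782 FPKM in the mutant and 746 FPKM in the control library. Of 13 tendon and connective tissue genes 11 were measured, 7 higher and 4 lower, with sums of 162 FPKM in the mutant and 165 FPKM in the control library. Their median log2 ratio was 0.25, with 5 at least 1.2-fold higher and 3 at least 1.2-fold lower. The interval lay above 1 for 7 and below 1 for 4, so near-equal sums hide differences in both directions.

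Other extracellular WNT inhibitors did not differ beyond counting error. Of 9 listed, 5 were measured, the interval held 1 for all 5, and their median log2 ratio was 0.02. Sostdc1, a secreted antagonist of LRP and BMP signals made by epithelia, had 32.4 FPKM in the mutant and 31.6 FPKM in the control library. Apcdd1, a membrane-bound WNT inhibitor, had 26.6 FPKM in the mutant and 27.0 FPKM in the control library. Tpbg, a membrane protein that dampens WNT signals in zebrafish, had a ratio of 1.04 (0.939 to 1.15).

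The WNT ligands, to which the Sfrp proteins and Wif1 bind, were split. Of 19 WNT ligand genes 8 were measured, 3 higher and 5 lower, with a median log2 ratio of −0.11 and 1 past 1.2-fold in each direction. Wnt2, at 0.878 FPKM in the mutant and 1.08 FPKM in the control library, passed the threshold of 1 FPKM through the control library alone, so that it could count only as lower. Wnt6, an epithelial ligand, had 3.59 FPKM in the mutant and 5.66 FPKM in the control library, a ratio of 0.633 (0.514 to 0.775). It reached 5 FPKM in the control library alone, so that it could be named only as lower. Wnt5a, the mesenchymal ligand of beta-catenin-independent signalling, was the only other of at least 5 FPKM and had 31.0 FPKM in the mutant and 33.6 FPKM in the control library. The ligands summed to 57.1 FPKM in the mutant and 61.3 FPKM in the control library, a ratio of 0.930 (0.889 to 0.973). The sum of the 9 inhibitors had a ratio of 1.08 (1.05 to 1.11), and that of the 17 receptor genes had 1.07 (1.05 to 1.09). Such sums weigh the most abundant genes most, here Wnt5a among the ligands and Sfrp2 among the inhibitors. Wnt1, whose promoter gives the Cre line its name, was listed at 0 in both libraries and is named after its values were seen.

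Of 17 receptor genes all were measured, 11 higher and 6 lower, with a median log2 ratio of 0.07. At least 1.2-fold higher were 5, and 1 was at least 1.2-fold lower, Fzd10, with a ratio of 0.808 (0.705 to 0.928). The interval lay above 1 for 7 of the 17 and below 1 for 3. The Frizzled receptor Fzd1, whose ligand-binding domain is the kind Frzb resembles, had 41.9 FPKM in the mutant and 28.4 FPKM in the control library, a ratio of 1.48 (1.4 to 1.55). Fzd8 and Fzd9 had ratios of 1.31 (1.21 to 1.41) and 1.44 (1.17 to 1.79). Fzd9 reached 5 FPKM in the mutant library alone, so that it could be named only as higher. The coreceptors Lrp5 and Lrp6 are named because Dkk2 binds them, and not by the size of their ratios. Lrp5 had 23.2 FPKM in the mutant and 21.3 FPKM in the control library, a ratio of 1.09 (1.03 to 1.15) whose interval left out 1. Lrp6 had 25.4 FPKM in the mutant and 25.2 FPKM in the control library, a ratio of 1.01 (0.970 to 1.05). The R-spondin list, which holds the R-spondins, their LGR receptors and the ligases RNF43 and ZNRF3, had 8 of 9 genes measured, 5 higher and 3 lower, with a median log2 ratio of 0.10. Lgr5 had a ratio of 1.31 (1.2 to 1.44), Lgr4 of 1.13 (1.07 to 1.19) and Rspo1 of 1.14 (0.940 to 1.39). In this list 1 gene was at least 1.2-fold higher and 1 at least 1.2-fold lower. The interval lay above 1 for 2 of the 8 and below 1 for 2. The gene past 1.2-fold lower was Lgr6, which stayed under 5 FPKM, with a ratio of 0.594 (0.455 to 0.781).

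Genes that WNT signals switch on were mostly slightly lower. Of 13 listed 10 were measured, 2 higher and 8 lower, with a median log2 ratio of −0.05, none at least 1.2-fold higher and 3 at least 1.2-fold lower. The interval lay below 1 for 3 of the 10 and above 1 for 1. Nkd2, a feedback inhibitor, had 4.97 FPKM in the mutant and 6.31 FPKM in the control library, a ratio of 0.788 (0.682 to 0.912). It reached 5 FPKM in the control library alone, so that it could be named only as lower. Besides Nkd2, the genes at least 1.2-fold lower were Tcf7 and Sp5, which stayed under 5 FPKM. Their ratios were 0.668 (0.512 to 0.874) and 0.729 (0.580 to 0.920). Lef1, a nuclear partner of beta-catenin, had a ratio of 1.17 (1.03 to 1.33), and Tnfrsf19, a receptor of the TNF family, had 1.10 (0.984 to 1.2). Lef1 and Tnfrsf19 were the only higher ones of the 10. Axin2, a widely used readout of the pathway and named for that, had 8.19 FPKM in the mutant and 8.41 FPKM in the control library, a ratio of 0.974 (0.878 to 1.08). The 16 cytoplasmic and nuclear genes split into 8 higher and 8 lower, none past 1.2-fold, with a median log2 ratio of 0.0025. Among them Gsk3a, Gsk3b and Tcf7l2 had ratios of 0.943, 1.07 and 0.956, and the model of Gsk3b overlaps another gene model.

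**Figure D4:**
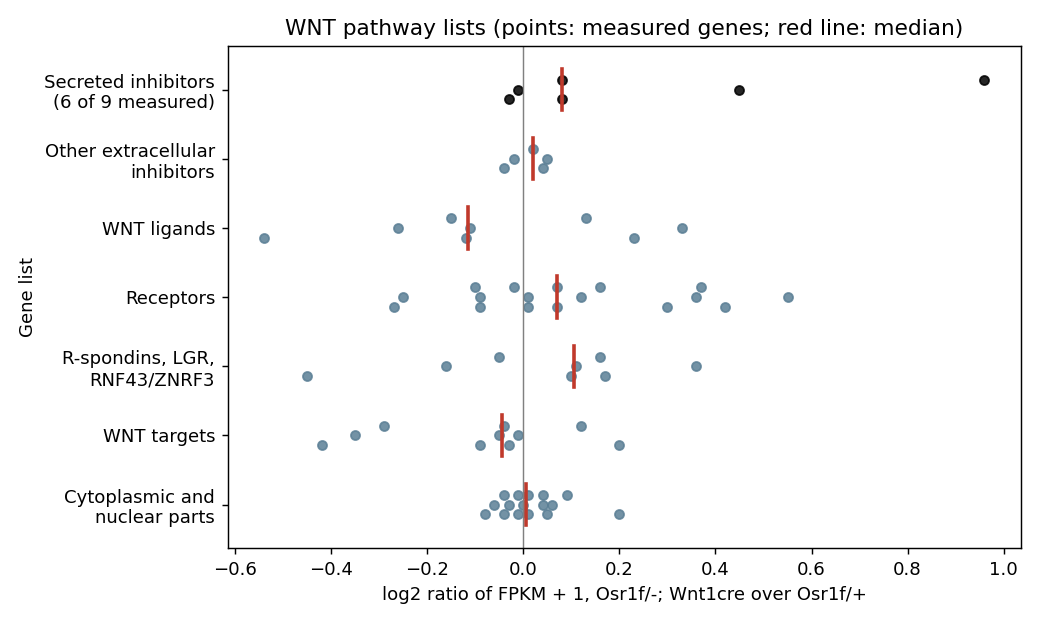
Log2 ratio of FPKM plus 1, Osr1f/-; Wnt1cre over Osr1f/+, of the measured genes of each WNT pathway list (points) with the list's median (red line). The medians lie between −0.11 for the ligands and 0.10 for the R-spondin list, and Frzb, at 0.96, is the point farthest from 0.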

How the data were processed

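Tongues were pooled before extraction, 3 pairs in all per the series' design text, and the cDNA kit was NuGEN Ovation RNA-Seq v2, per the labels' protocols. The build mm9, TopHat 1.4.1 and Bowtie 0.12.7 are listed, per the submitters' processing notes. The deposited FPKM are per RefSeq transcript, in the layout of a Cufflinks table, per the file headers. Per the file headers, a further deposited column is coverage, a signal that grows with the depth of a library. The sources used here do not give the read length, the strand setting or the version of Cufflinks. The 2 libraries came from different lanes of 1 run, as their names tell, so lane and genotype cannot be told apart.

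FPKM were summed per symbol with Python 3.11.15 and pandas 2.3.3. A measured gene had at least 1 FPKM in either library and the status OK in all its rows, and 204 symbols were left out for their status. The log2 ratio used a pseudocount of 1 FPKM, which understates differences of low genes. For transcripts of 1000 nt or more that are the only row of their gene, coverage times length within a preset range had a median of 47.4 bases. This median was taken as 1 read to estimate reads, and whether the values cluster there was not tested. From these reads came exact conditional (Clopper-Pearson) 95% intervals of ratios (scipy 1.17.1), exact Poisson intervals of levels and, for sums, propagated Poisson errors. The floor was 3 reads. Locus starts are counted from 0 in the files, since end minus start equals the length in 3284 rows, and 1 was added.

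Members and lists were chosen with earlier results of these data known. Named besides the members were Osr1, the 4 genes closest to Frzb, the first 2 genes of a marker list and the neighbours. Up to 3 genes per pathway list were also named, those of 5 FPKM or more in a library with the log2 ratio farthest from 0. Outside this rule stood Wnt1, Wnt2, Fzd10, Lrp5, Lrp6, Lgr6, Tcf7, Sp5, Axin2, Acan, Matn1 and the genes named under the other observations. The lists for bone, blood, endothelium, macrophage, neuron and Schwann cells are given under the other observations. Results were recomputed with other pseudocounts, filters, scalings and ways of summing rows.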

Additional observations from a re-analysis of the deposited data

How the results depend on the processing

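Of the 9 alternatives, all gave 2 measured members at least 1.2-fold higher. Each member has 1 row, so taking only the row with the highest mean FPKM could not change the members' values. Scaling estimated reads to depth used the same deposited coverage and gave the same log2 ratios, 0.96 for Frzb and 0.45 for Dkk2. Both of these alternatives are also among the 5 that apply to sums. With no filter on low values 1 member, Dkk1, was at least 1.2-fold lower, against 0 as reported, and the median log2 ratio of the members turned to −0.01, as the 3 members under 1 FPKM then entered. Over the other alternatives the median stayed positive, up to 0.09. With a pseudocount of 5 FPKM the log2 ratio of Frzb was 0.67 and that of Dkk2 was 0.27, lower by construction, and with 0.1 FPKM they were 1.06 and 0.53. No measured member changed its sign. The Sfrp sum kept a ratio of 1.07 to 1.08 and the Dkk sum of 1.15 to 1.19 in the 5 alternatives that apply to sums. Setting the median of all genes to 0 moves log2 ratios by 0.0035. No replicate could be left out, and no paired analysis was possible because each genotype has 1 library. Depth limits Sfrp4, Sfrp5 and Dkk1, and ratios near 1 rest on estimated reads of an amplified library.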

Other observations

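Markers of other cell types were counted in the same libraries. Of 6 measured erythroid genes 6 were lower in the mutant library, with sums of 1178 FPKM in the mutant and 1430 FPKM in the control library. Neuronal genes had 4 higher and 6 lower of 10, with sums of 51.2 FPKM in the mutant and 60.2 FPKM in the control library. Snap25 and Elavl4 among them reached 1 FPKM in the control library alone, so that they could count only as lower. Schwann lineage genes had 2 higher and 5 lower of 7, with sums of 44.7 FPKM in the mutant and 53.7 FPKM in the control library. Endothelial genes had 6 higher and 2 lower of 8, and macrophage genes 5 higher and 1 lower of 6. Their median log2 ratios were 0.03 and 0.08, and the interval held 1 for 5 of the 8 and 5 of the 6. Of 10 bone genes 5 were measured, 2 higher and 3 lower, with a median log2 ratio of −0.05 and sums of 209 FPKM in the mutant and 227 FPKM in the control library. The 5 are named after their values were seen. The 2 higher ones were Runx2, the regulator of osteoblast fate, with 3.83 FPKM in the mutant and 1.79 FPKM in the control library, and the homeobox gene Dlx5, with 3.63 FPKM in the mutant and 1.62 FPKM in the control library. The 3 lower ones were Col1a1, the main collagen of bone, with a ratio of 0.901 (0.883 to 0.919), and Alpl and Sp7, with ratios of 0.803 (0.597 to 1.09) and 0.956 (0.758 to 1.2), whose intervals held 1.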
